A study of Mus musculus with 3 samples.

Results

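The Scara5 and Dpep1 fibroblast nuclei were 246 nuclei of a library of mouse sympathetic ganglia, out of 4509 nuclei kept in that library and 30300 cells and nuclei kept in the whole series. They were chosen by their transcripts. A nucleus was kept with at least 200 genes and at most 5% of its unique molecular identifiers (UMIs, each counted as 1 captured RNA molecule) in mitochondrial genes. It then needed UMIs in at least 2 of 6 genes, Scara5, Dpep1, Lvrn, Nox4, Pcolce2 and Opcml, with Scara5, Dpep1 or Nox4 among them. At most 1 of 5 genes that mark another fibroblast population, C7, Epha3, Itgbl1, Sfrp4 and Col14a1, could be detected, and Adipoq, Pecam1, Ptprc and Dbh had to be at 0 UMIs. The members made up 5.46% of kept nuclei (exact 95% binomial interval 4.81 to 6.16%).

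Fibroblasts of the connective tissue around nerves, ganglia, vessels and fat build the extracellular matrix and release growth factors and chemokines to neighbouring cells. In many organs a population near vessels and fascia carries Pi16, Dpp4, Cd34 and Ly6a, is often called universal or adventitial, and is thought to give rise to other fibroblasts, whereas other populations are set apart by matrix genes or by complement. Scara5 encodes a scavenger receptor that takes up ferritin, and Dpep1 a membrane dipeptidase that cleaves cystinyl-glycine and leukotriene D4. Of the other selecting genes, Lvrn encodes a membrane aminopeptidase, Nox4 an oxidase that produces hydrogen peroxide, Pcolce2 an enhancer of procollagen processing and Opcml a cell adhesion protein of the IgLON family.

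The series studied stress and skin inflammation in mice and held 3 libraries, each the only one of its group. The members come from nuclei of pooled sympathetic ganglia (SCG, STG, T2-T4 and CG) of 30 mice, captured with 10x Genomics 3' v3.1 chemistry, and the library's description gives the mice as treated with RHS and MC903. MC903 is calcipotriol, a vitamin D analogue that causes dermatitis-like inflammation, and RHS is not spelled out in the labels. The skin libraries held cells selected with CD45 beads on the BD Rhapsody system, from mice given MC903 (control) and from mice given RHS and MC903. By these descriptions all groups carried MC903, although the preparation text also names skin of mice given ethanol. Neither strain nor sex nor age of the mice is stated in these sources. Skin stands in the ganglia sample's title, and the preparation text calls its mice challenged with MC903 without naming RHS. With no ganglia of mice without RHS, nothing about the members can be set against an untreated state. Each group was 1 library, so there is no replicate error. Every interval below is an exact 95% interval that covers counting error only, levels are UMIs of a gene per 1000000 UMIs of the summed nuclei (CPM), and no test between groups was run.

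The ganglia library held 4706 barcodes and 11101393 UMIs. Although the label gives its cells as neurons, its largest clusters were led by adipocyte, macrophage, endothelial and fibroblast genes. A doublet caller marked 2 of 4509 kept nuclei (0.0444%) and none of the members, so it separated almost none and doublets may remain. Free RNA was present throughout. Npy, a transmitter gene of sympathetic neurons, had a UMI in 32.5% of members and in 33.1% of 390 immune-marked nuclei (at least 3 of 12 immune markers, median 1527.5 UMIs), which should lack it. Shares in these immune-marked nuclei are given below as the background of a gene, except where stated.

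Members carried 372176 UMIs, with a median of 1188.5 per nucleus (507 to 8256) and a median of 815 genes. Of the kept nuclei, 607 had at least 2 selecting genes with a key gene among them. Of these, 243 had more than 1 of the 5 limited genes, and 118 failed only because of a UMI of Dbh (55 nuclei), Pecam1 (41), Ptprc (32) or Adipoq (20). Among members, 109 had exactly 2 selecting genes, 76 had 3, 39 had 4, 19 had 5 and 3 had all 6. In all 46 combinations occurred, and the most common were Scara5 with Lvrn (26 nuclei), Scara5 with Nox4 (19) and the 3 together (16). Scara5 and Nox4 were found together in 103 members, and Scara5 and Dpep1 in 57.

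The levels of the selecting genes follow from the rule and are a description. Scara5 (ENSMUSG00000022032) had 366 UMIs in 171 members (69.5%), at 983 CPM (885 to 1089.5). Nox4 (ENSMUSG00000030562) had 728 UMIs in 164 members (66.7%) and Lvrn (ENSMUSG00000024481) 458 UMIs in 151 (61.4%). These 3 were the ones found in most members. Opcml (ENSMUSG00000062257) was found in 94 members (38.2%), Dpep1 (ENSMUSG00000019278) in 84 (34.1%) and Pcolce2 (ENSMUSG00000015354) in 51 (20.7%). Dpep1, which gives the group its second name, was thus not detected in most members, at a depth where non-detection does not show absence. In immune-marked nuclei the 6 shares ran from 0.513% (Dpep1) to 5.64% (Nox4).

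**Figure D1:**
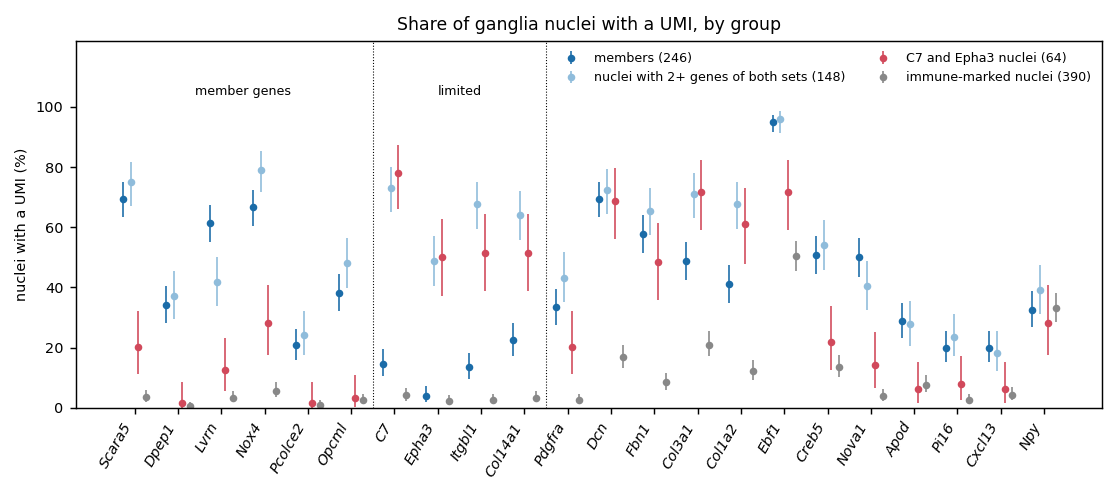
Share of ganglia nuclei with at least 1 UMI of each gene (y axis, %), for the 246 members, 148 nuclei with at least 2 genes of both sets, 64 C7 and Epha3 nuclei and 390 immune-marked nuclei; bars are exact 95% binomial intervals. Selecting and limited genes are set by the rule; Nova1 is higher in members (50%) than in C7 and Epha3 nuclei (14.1%), Dcn is alike (69.5% and 68.8%), and Npy is at the immune-marked level.

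The label of fibroblast was checked against 14 pan-fibroblast genes. All 14 were detected in members, and 234 of the 246 members had at least 2 of them. Dcn, a collagen-binding proteoglycan, had a UMI in 69.5% of members against 16.9% of immune-marked nuclei. Pdgfra, the platelet-derived growth factor receptor of fibroblasts, had one in 33.3% against 2.56%, and Fbn1, the main fibrillin of microfibrils, in 57.7% against 8.46%. Scn7a, a sodium channel of glia and of some fibroblasts, was found in 45.9% of members against 4.36%. Clusters were made without the rule but with the selecting genes left in, so their overlap with the members is no separate check. Of the members, 200 (81.3%) fell in 1 of 24 clusters, which held 450 nuclei and was led by Lvrn, Nox4, Nova1, Scara5 and Creb5. Another 25 were in a cluster of 245 nuclei led by C7, Col1a2 and Epha3, and the other 21 were spread over 11 clusters.

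Markers of other cells were also present. At least 2 noradrenergic neuron markers were found in 120 members (48.8%) and in 53.1% of immune-marked nuclei, and at least 2 adipocyte markers in 71 members (28.9%) and in 33.3%. Both shares were below those of immune-marked nuclei, which were deeper (median 1527.5 against 1188.5 UMIs). Levels summed over these 2 lists were higher in members, however, at 1346 against 1145 CPM and at 1916 against 1694 CPM. At least 2 glial markers were found in 24 members (9.76%) against 4.10%, and at least 2 endothelial markers in 20 (8.13%) against 5.13%; the glial list includes Scn7a. Summed over the noradrenergic list, members had 1346 CPM, the other nuclei 3584 CPM and the C7 and Epha3 nuclei described below 992 CPM. The adipocyte list gave 1916, 5240.0 and 680 CPM, the endothelial list 758, 1890.4 and 359 CPM and the glial list 806, 585 and 1516 CPM. Adipocyte and endothelial markers were thus higher in members than in C7 and Epha3 nuclei, with 4 of 6 and 3 of 4 compared genes at least 2-fold higher (median log2 ratios 1.21 and 1.71), and glial markers lower, with 3 of 4 at least 2-fold lower. Over all genes compared with the C7 and Epha3 nuclei, 12.7% were at least 2-fold higher and 7.32% lower. Dbh, Adipoq, Pecam1 and Ptprc were at 0 by the rule. Of all members, 23 had no UMI of any of 61 markers of other cells. The part of these markers in the values below was not tested.

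The members nearest to the limits of the rule were as follows. The 109 members with exactly 2 selecting genes had Dcn in 63.3%, Pdgfra in 23.9% and Creb5 in 37.6% of nuclei, and the 137 with 3 or more had them in 74.5%, 40.9% and 61.3%. Just outside, 129 nuclei with 1 key gene and no other selecting gene had Dcn in 24.8%, Pdgfra in 8.53% and Creb5 in 13.2%. The 62 nuclei outside only for having exactly 2 limited genes had them in 74.2%, 38.7% and 53.2%, and the 118 outside only for a UMI of Dbh, Pecam1, Ptprc or Adipoq in 67.8%, 33.9% and 47.5%. The shares of these 2 last groups lay near those of the members, and those of the nuclei 1 gene short were lower. The 118 nuclei were deeper, however (median 1878 against 1188.5 UMIs), and their levels were lower than in members, at 609 against 1459 CPM for Dcn, 166 against 371 for Pdgfra and 371 against 1120.4 for Creb5. At an equal depth of 500 UMIs their expected shares were 34.2% against 45.3% for Dcn and 23.6% against 34.3% for Creb5.

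Members were first compared with 64 nuclei of the same library chosen by the mirrored rule, with at least 2 of C7, Epha3, Itgbl1, Sfrp4 and Col14a1 (C7 or Epha3 among them) and at most 1 of the 6 selecting genes. They are called C7 and Epha3 nuclei here, and held 127973 UMIs with a median of 1666.5. Between the groups lay 148 nuclei with at least 2 genes of both sets (median 1911 UMIs), more than the 64 mirrored ones. Members were the shallowest of the 3 groups, and the part of depth in this division was not tested. In addition, 19 of the 64 C7 and Epha3 nuclei and 5 of the 246 members carried at least 2 of 10 mesothelial markers (a lining epithelium), with 1711 and 193 CPM summed over that list. Ratios that move by more than 1.5 times without those 19 nuclei are given with both values, apart from bounds set by a floor of UMIs. Of 4989 genes with at least 20 UMIs over both groups, 633 (12.7%) were at least 2-fold higher in members and 365 (7.32%) at least 2-fold lower, with a median log2 ratio of 0.10. The rule separated these groups, so nothing is read from these counts.

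Leaving out the 148 nuclei with both gene sets bears on every ratio of this comparison, because the mirrored rule keeps only C7 and Epha3 nuclei with at most 1 selecting gene. With the 148 joined to the 64, 373 of 6825 compared genes (5.47%) were at least 2-fold higher in members, rather than 633 of 4989 (12.7%). Those lower were 5.39% of genes. Without the 19 mesothelial-marked nuclei the shares were 15.2% higher and 5.57% lower. Counts of listed genes below under either setting stand beside its own shares. With the 148 joined, the ratios described below shrank for most genes that were higher. Pi16 went from 5.22 to 1.27, Fgf10 from 4.53 to 1.18, Ackr3 from 4.54 to 1.42, Adamtsl3 from 5.23 to 1.59, Creb5 from 4.94 to 1.73, Ebf1 from 3.59 to 1.61 and Nid1 from 3.39 to 1.60. Among the genes described that are higher in members, ratios that still passed 2-fold were those of Lvrn (3.2), Nova1 (2.45), Apod (2.48), Cxcl13 (2.44), Procr (2.89), Negr1 (3.47), Igfbp3 (4.42), Calcrl (2.5), Adra1a (2.22) and Chrm3 (3.10, from 2.92). The lower collagens were little touched, with Col3a1 at 0.393, Col1a1 at 0.313 and Col1a2 at 0.388.

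Fibrillar collagens were lower in members than in C7 and Epha3 nuclei. Of 11 fibrillar collagen genes 6 could be compared. Of these, 3 were at least 2-fold lower and none higher, beside 7.32% and 12.7% of all genes, with a median log2 ratio of -1.08. Col3a1, the chain of type III collagen, was at 1147 CPM (1041 to 1261) in members and 2758 CPM (2478 to 3062) in C7 and Epha3 nuclei, a ratio of 0.416 (0.360 to 0.480). Col1a1 and Col1a2, which form type I collagen, were at 188 against 617 CPM (ratio 0.305, interval 0.218 to 0.426) and at 519 against 1172 CPM (ratio 0.442, interval 0.356 to 0.551). Leaving out the 19 mesothelial-marked nuclei put these 3 ratios at 0.338, 0.213 and 0.326. The intervals of the levels did not overlap for any of the 3. Against the 148 nuclei with both gene sets, ratios were of the same size, at 0.386, 0.317 and 0.372. Col3a1 had a UMI in 48.8% of members and in 21.0% of immune-marked nuclei.

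Not all matrix genes followed the collagens. Dcn was at 1459 CPM in members and 1227 CPM in C7 and Epha3 nuclei (ratio 1.19, interval 0.994 to 1.43), and Fbn1 at 1150 and 1102 CPM (ratio 1.04, interval 0.861 to 1.27), both with intervals that include 1. Without the mesothelial-marked nuclei the ratio of Fbn1 was 0.707. Nid1, which links laminin and collagen IV in basement membranes, was at 344 CPM in members against 102 (ratio 3.39, interval 1.91 to 6.53), and Adamtsl3, a matrix protein related to the ADAMTS proteases, at 368 against 70.3 (ratio 5.23, interval 2.68 to 11.7). Lower in members were its relative Adamtsl1, at 618 against 2274 CPM (ratio 0.272, and 0.578 without the mesothelial-marked nuclei), and Eln, the elastin gene, at 116 against 633 CPM (ratio 0.183, interval 0.123 to 0.267). Over the lists, 1 of 12 basement membrane genes was at least 2-fold higher and 3 lower, and 1 of 14 elastic fibre genes was higher and 2 lower. Of 19 matrix proteases and their relatives 2 were higher and 4 lower. Over all genes compared 12.7% were higher and 7.32% lower.

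Membrane peptidases and redox enzymes include selecting genes, which the rule put higher. Of 9 peptidase and leukotriene genes compared 4 were at least 2-fold higher and none lower, namely Dpep1, Lvrn and, named after their values were seen, Ace and Mme. With the nuclei of both gene sets joined, 2 of 11 were higher, beside 5.47% of all genes. Of 6 NADPH oxidase and redox genes 4 were higher, with Nox4 and Gpx3 among them, beside 12.7% of all genes. That count was 2 of 6 without the mesothelial-marked nuclei, beside 15.2% of all genes. It was 2 of 8 with the nuclei of both gene sets joined, beside 5.47%. Gpx3, a secreted glutathione peroxidase, was at 150.5 CPM in members and 46.9 in C7 and Epha3 nuclei (ratio 3.21, interval 1.39 to 9.12), and was found in 36 and 6 nuclei. With the nuclei of both gene sets joined its ratio was 1.63. In the list of IgLON and other adhesion genes, Negr1, a relative of Opcml, was at 319.7 against 39.1 CPM (ratio 8.18, interval 3.41 to 25.7), from 5 UMIs in C7 and Epha3 nuclei. Opcml itself had 472 UMIs in members and 2 in C7 and Epha3 nuclei, by the rule.

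**Figure D2:**
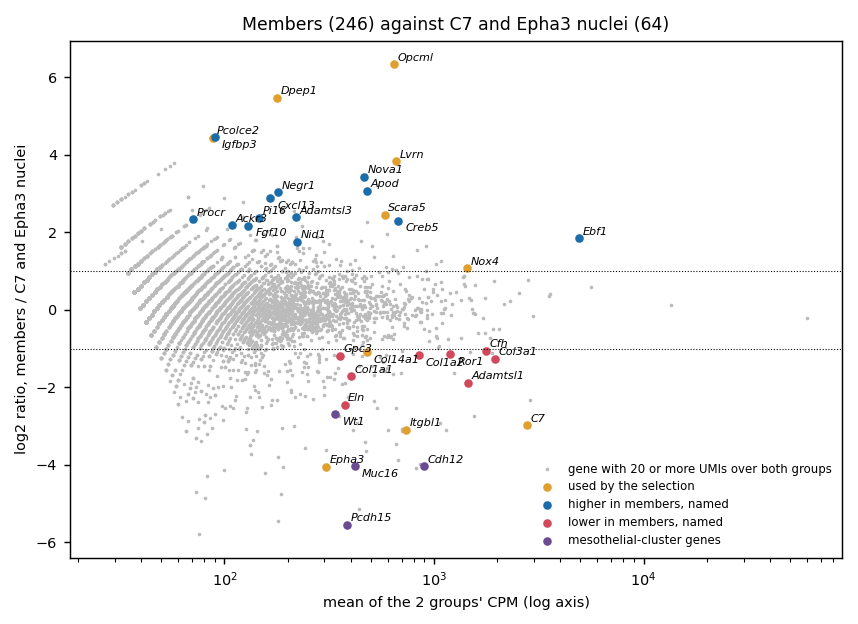
Log2 ratio of CPM in the 246 members over the 64 C7 and Epha3 nuclei (y axis) against the mean CPM of both groups (x axis, log scale), for each gene with at least 20 UMIs over both; dotted lines mark a 2-fold difference. Genes of the rule are orange; Nova1, Apod, Creb5 and Ebf1 lie above, and the collagens, Eln and Adamtsl1 below, with genes of the mesothelial cluster such as Pcdh15 among the lowest.

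Genes of universal fibroblasts were more often higher than lower. Of 16 listed genes 13 could be compared, and 6 were at least 2-fold higher in members and none lower, beside 12.7% of all genes higher; the median log2 ratio was 0.21 beside 0.10. Pi16, a protease inhibitor and a gene often used for this population, was at 245 CPM (197 to 300.2) in members and 46.9 CPM (17.2 to 102) in C7 and Epha3 nuclei, a ratio of 5.22 (2.31 to 14.6). Creb5, a transcription factor, was at 1120.4 against 227 CPM (ratio 4.94, interval 3.39 to 7.48, and 3.22 without the mesothelial-marked nuclei). Procr, the protein C receptor, had 44 UMIs in 32 members and 3 UMIs in C7 and Epha3 nuclei (ratio 5.04, interval 1.62 to 25.4). The other genes often named with Pi16 had ratios near 1. Dpp4, a dipeptidyl peptidase of the cell surface, had a ratio of 1.00 (0.630 to 1.65), Cd34, a sialomucin, 0.974 (0.560 to 1.77) and Ly6a, a surface antigen of progenitors, 1.15 (0.661 to 2.11). Wnt2 was at 0 UMIs in members, which limits its share only to about 1.22%. It had a UMI in 0.494% of the other nuclei, so the 0 does not set members apart. Pi16 stood at the same level in the nuclei with both gene sets (244 CPM, ratio 1.00). With these joined to the C7 and Epha3 nuclei, 1 of the 13 genes, rather than 6, was higher, beside 5.47% of all genes.

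Among regulators, Ebf1 was the gene with most UMIs. This early B-cell factor, also expressed in adipocyte precursors and stroma, had 2873 UMIs in 234 members, at 7719 CPM (7439.8 to 8007), against 2149 CPM (1902 to 2418) in C7 and Epha3 nuclei. Its ratio was 3.59 (3.17 to 4.08), or 2.33 without the mesothelial-marked nuclei, and 1.34 against nuclei with both gene sets. It had a UMI in 95.1% of members and in 50.5% of immune-marked nuclei. Its relative Ebf2, known from brown fat precursors, was at 1429 against 625 CPM (ratio 2.29, and 1.49 without the mesothelial-marked nuclei). Nova1, a splicing regulator best known from neurons, was at 849 CPM (758 to 948) in members and 78.1 CPM (37.5 to 144) in C7 and Epha3 nuclei, a ratio of 10.9 (5.83 to 22.9). It was found in 50% of members, 14.1% of C7 and Epha3 nuclei and 3.85% of immune-marked nuclei, and members had 1.92 times the level of nuclei with both gene sets. Sox6, a factor of cartilage and other lineages, was lower, at 126 against 1078 CPM (ratio 0.117, and 0.254 without the mesothelial-marked nuclei). Of 28 fibroblast transcription factors compared 5 were at least 2-fold higher and 2 lower, shares near the 12.7% and 7.32% of all genes. With the nuclei of both gene sets joined, 1 of 32 was higher and 2 lower, beside 5.47% and 5.39% of all genes.

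Secreted factors and their receptors were mixed. Of 24 growth factor genes 7 were at least 2-fold higher in members and 2 lower, beside 12.7% and 7.32% of all genes. Their median log2 ratio was 0.40 beside 0.10 for all genes. With the nuclei of both gene sets joined, 3 of 26 were higher and 1 lower, beside 5.47% and 5.39% of all genes. Fgf10, a factor for epithelia and fat, was at 212 CPM in members and 46.9 in C7 and Epha3 nuclei (ratio 4.53, interval 1.99 to 12.7). Igfbp3, which binds insulin-like growth factors, had 64 UMIs in 26 members and 1 UMI in C7 and Epha3 nuclei, so its ratio of 22.0 (3.81 to 883) is loosely bound. It was 13.8 without the mesothelial-marked nuclei and 4.93 without the highest nucleus of each group, and 15 of its UMIs were in 1 member. Lower were Fgf1, at 24.2 against 336 CPM (ratio 0.0720, interval 0.0308 to 0.150), with too few UMIs to be compared without the mesothelial-marked nuclei, and Pdgfd, at 274 against 742 CPM (ratio 0.369, and 0.712 without those nuclei). Egfr, the receptor of epidermal growth factor, was at 1706 against 1117 CPM (ratio 1.53, interval 1.27 to 1.84). Apod, a lipocalin that carries lipids and is made by nerve fibroblasts and glia, was at 854 CPM (763 to 954) against 102 CPM (54.1 to 174), a ratio of 8.41 (4.85 to 16.0). That ratio was 5.29 without the mesothelial-marked nuclei and 16.9 without the highest nucleus of each group, which held 8 of the 13 UMIs of the C7 and Epha3 nuclei.

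Of 9 chemokine, alarmin and cytokine receptor genes compared 4 were at least 2-fold higher in members and none lower. Over all genes the shares were 12.7% and 7.32%. Higher were 2 of 9 without the mesothelial-marked nuclei, beside 15.2% of all genes. With the nuclei of both gene sets joined 1 of 11 was higher, beside 5.47%. Cxcl13, a chemokine that attracts B cells, had 108 UMIs in 49 members and 5 in C7 and Epha3 nuclei (ratio 7.43, interval 3.09 to 23.3), and its share of nuclei was 19.9% in members against 4.36% in immune-marked nuclei. Ackr3, a receptor that clears Cxcl12, was at 177 against 39.1 CPM (ratio 4.54, interval 1.85 to 14.4). Il33, an alarmin of type 2 immunity, was at 416 CPM in members and 359 in C7 and Epha3 nuclei, with a ratio of 1.16 (0.829 to 1.65), and 53 of its 155 UMIs came from 1 member. Ccl11, the eosinophil chemokine eotaxin, had 12 UMIs in 11 members (4.47%, against 0.513% of immune-marked nuclei), and 1 UMI in C7 and Epha3 nuclei.

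Genes that act on nerves showed no single direction. Of 15 neurotrophic and axon guidance genes 5 were at least 2-fold higher in members and 3 lower, beside 12.7% and 7.32% of all genes. Without the mesothelial-marked nuclei 3 of 14 were higher and 2 lower, beside 15.2% and 5.57% of all genes. The counts were 4 of 19 higher and 3 lower with the nuclei of both gene sets joined, beside 5.47% and 5.39%. Slit3, a secreted guidance cue, was among the most widely found, in 220 members (89.4%) at 3971 CPM, against 3094 CPM in C7 and Epha3 nuclei (ratio 1.28, interval 1.15 to 1.44). The direction of that ratio turned to 0.893 without the mesothelial-marked nuclei and to 0.898 with the nuclei of both gene sets joined. Robo1, a receptor gene for such cues, was at 333 against 109 CPM (ratio 3.05, with 1.92 without the mesothelial-marked nuclei and 5.09 without the highest nucleus of each group), while the related cue Slit2 was at 80.6 against 242 CPM (ratio 0.333, interval 0.195 to 0.568). Gfra1, a receptor of glial cell line-derived neurotrophic factor, had 30 UMIs in 14 members and none in C7 and Epha3 nuclei, which is at least 3.44-fold higher with those nuclei set at a floor of 3 UMIs over the group.

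Receptors for transmitters, peptides and related signals were sparse. Of 33 such receptor genes, adrenergic, cholinergic, purinergic, peptide and others, 13 were at 0 UMIs in members. Of the 6 compared with C7 and Epha3 nuclei 4 were at least 2-fold higher and none lower, beside 12.7% and 7.32% of all genes. Their median log2 ratio was 1.35. Without the mesothelial-marked nuclei 3 of 6 were higher and none lower, beside 15.2% and 5.57% of all genes. With the nuclei of both gene sets joined 4 of 9 were higher and 1 lower, beside 5.47% and 5.39%. Adra1a, the alpha-1A receptor, had 39 UMIs in 24 members (9.76%) and Calcrl, part of the receptors for calcitonin gene-related peptide and adrenomedullin, 40 in 29 (11.8%). Their ratios were 4.47 (1.42 to 22.6) and 4.58 (1.46 to 23.2), each from 3 UMIs in C7 and Epha3 nuclei, or 2.81 and 2.88 without the mesothelial-marked nuclei. Without the highest nucleus of each group that of Adra1a was 10.3. Their shares in immune-marked nuclei were 9.49% and 5.90%, so Adra1a was at the background. Chrm3, a muscarinic receptor, was at 228 CPM in members, 78.1 in C7 and Epha3 nuclei (ratio 2.92, and 1.84 without the mesothelial-marked nuclei) and 72.1 in nuclei with both gene sets.

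Glucocorticoid genes, which respond to a stress hormone, were listed because the series concerns stress, and no ganglia of mice without RHS were analysed here. Nr3c1, the glucocorticoid receptor, had a UMI in 23.2% of members, below the 36.7% of immune-marked nuclei, and was at 226 CPM against 222 CPM in the other nuclei (ratio 1.02, interval 0.809 to 1.27). Fkbp5, a chaperone and a standard glucocorticoid target, was found in 64.2% of members and 79.0% of immune-marked nuclei, with a ratio of 1.06 (0.954 to 1.17) over the other nuclei. Zbtb16, another target, was at 1811 CPM in members and 804 in the other nuclei (ratio 2.25, interval 2.08 to 2.44), and at 985 in C7 and Epha3 nuclei (ratio 1.84, interval 1.52 to 2.24). Of 16 such genes compared with the C7 and Epha3 nuclei 3 were at least 2-fold higher and 1 lower, beside 12.7% and 7.32% of all genes. Without the mesothelial-marked nuclei 1 of 15 was higher and none lower, beside 15.2% and 5.57% of all genes. The counts were 3 of 17 higher and none lower with the nuclei of both gene sets joined, beside 5.47% and 5.39%. Errfi1, an inhibitor of the epidermal growth factor receptor, was at 852 against 406 CPM (ratio 2.10). That ratio was 0.931 with the nuclei of both gene sets joined.

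**Figure D3:**
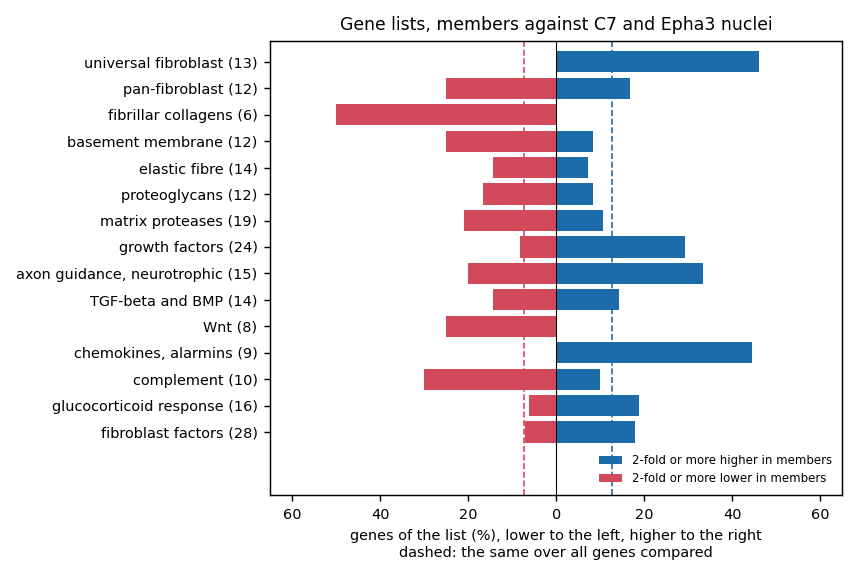
For each list, the percentage of its compared genes that were at least 2-fold higher (right, blue) or lower (left, red) in members than in C7 and Epha3 nuclei, with the number compared in brackets; dashed lines mark 12.7% and 7.32%, the shares over all genes. Universal fibroblast genes have no bar on the left and fibrillar collagens none on the right.

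Of the 15 genes lowest in members against C7 and Epha3 nuclei, 5 (Pcdh15, Tmem132d, Cdh12, Muc16 and Gpm6a) were among the 10 leading genes of a cluster that also held Wt1. Pcdh15, a protocadherin, had 6 UMIs in members and 96 in C7 and Epha3 nuclei (ratio 0.0215), and Muc16, the mucin of mesothelium, 18 and 101 (ratio 0.0613). Without the mesothelial-marked nuclei Pcdh15 stood at 0.0499, and Wt1, a mesothelial transcription factor, went from 0.156 to 0.919. Single nuclei set other values. All 20 UMIs of the muscle gene Mybpc1 in the C7 and Epha3 nuclei were in 1 nucleus, and 165 of 206 UMIs of the collagen gene Col8a1 were in another. Without the highest nucleus of each group the ratio of Col8a1 was 0.177, from 0.0634, and that of Pcdh15 0.0204. The ratio of Col8a1 without the mesothelial-marked nuclei was 0.0399.

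Against the 4051 other kept nuclei, of which 118 failed the rule only for a UMI of Dbh, Pecam1, Ptprc or Adipoq, members were higher in most fibroblast genes. Of 15332 genes with at least 20 UMIs, 1338 (8.73%) were at least 2-fold higher in members and 2282 (14.9%) lower, with a median log2 ratio of 0. Of the 14 pan-fibroblast genes 12 were at least 2-fold higher, with a median log2 ratio of 2.34, and of 15 universal fibroblast genes 12 were higher, with a median of 1.95. The selecting genes Scara5, Nox4 and Lvrn were 17.0, 19.3 and 19.6 times as high, by the rule.

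Outside the rule, the gene with the highest ratio was Dchs2, a giant cadherin, at 64.5 against 3.97 CPM (ratio 16.3, interval 9.32 to 27.8), in 18 members. Pi16 was at 245 against 17.5 CPM (ratio 13.9, interval 10.7 to 18.1). Fgf7, the keratinocyte growth factor, was at 193 against 14.3 CPM (ratio 13.5, interval 10.0 to 18.1), and Il1rl2, the receptor of interleukin-36, at 161 against 12.4 CPM (ratio 13, interval 9.35 to 17.8). Vdr, the vitamin D receptor and thus the receptor of MC903, had a ratio of 12.9 (7.24 to 22.2), from 21 UMIs in 9 members, 8 of them in 1 nucleus. The other genes of the highest 20 included Hmcn2, a giant matrix protein (11.5), Nova1 (11.4), Cxcl13 (11.3), Sned1, a matrix glycoprotein (11.2), Adamtsl3 (11.1), C1qtnf7, a secreted C1q-like protein (11.0), Pdgfra (10.9), Il33 (10.4) and Ddr2, a collagen receptor (10.1). Of these, Fgf7, Pdgfra and Il33 had ratios over the C7 and Epha3 nuclei of 1.77, 1.83 and 1.16, or 1.11, 1.15 and 0.798 without the mesothelial-marked nuclei. Sned1, C1qtnf7 and Ddr2 stood at 3.90, 3.24 and 2.05 there, or at 2.54, 2.04 and 1.45 without them and 1.5, 1.13 and 1.13 with the nuclei of both gene sets joined.

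Among themselves, members were divided by the selecting gene Opcml, which was detected in 94 and not detected in 152, at median depths of 1193.5 and 1163 UMIs. Since a member needs 2 selecting genes, the split changes how many of the others it must carry. Of 2707 genes found in at least 10% of members, the 8 with the largest excess of nuclei on each side were picked, after their values were seen, and their shares are a description. With Opcml went Pi16, found in 42.6% of members with Opcml and 5.92% of those without it. Creb5 was found in 70.2% and 38.8%, Pcsk6, a proprotein convertase, in 45.7% and 12.5%, Fndc1, a fibronectin-type matrix gene, in 38.3% and 6.58%, and Sdk1, an adhesion protein of the immunoglobulin family, in 79.8% and 48.7%. Gfpt2, Axl and Cpq completed the 8. Members without Opcml more often carried Apod (38.2% against 13.8%), Spon1, a secreted matrix protein (25.0% against 3.19%), Smoc2, a calcium-binding matricellular protein (19.7% against 1.06%), and Scn7a (53.3% against 34.0%), besides Thsd7a, Svep1, Ror1 and Bmper.

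Pi16 and Apod rarely met in members. Of 246 members, 49 had Pi16 and 71 had Apod, and 5 had both, where the product of the shares gives 14.1. Of the 49 with Pi16, 40 also had Opcml. Some genes that were ranked in the same members but not picked also divided, which is a further description. Dpp4 was found in 25.5% of members with Opcml and 7.89% without, Procr in 24.5% and 5.92%, and Sema3c, a guidance cue on the universal list, in 35.1% and 16.4%. Igfbp3 was on the other side, in 1.06% and 16.4%, and Cxcl13 was nearly alike (18.1% and 21.1%). The limited gene Col14a1, left out of the ranking, was found in 38.3% and 12.5%. General fibroblast genes did not divide this way, with Pdgfra in 31.9% and 34.2% and Dcn in 66.0% and 71.7%. Npy, a measure of free neuronal RNA, was alike as well (31.9% and 32.9%). At an equal depth of 500 UMIs the expected shares of Pi16 were 22.1% and 2.03%, and those of Apod 6.40% and 27.6%.

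The same split was then made in nuclei that were not used to pick the genes. In the 118 nuclei that failed the rule only for Dbh, Pecam1, Ptprc or Adipoq, 51 had Opcml, and all 8 genes of its side and all 8 of the other side lay in the same direction as in members. There Pi16 was found in 17.6% with Opcml and 2.99% without, and Apod in 31.4% and 40.3%. Other differences were small with overlapping intervals, as for Gfpt2 (37.3% and 34.3%), Axl (29.4% and 25.4%) and Scn7a (35.3% and 38.8%). By CPM, Axl (108 and 120) and Fndc1 (64.0 and 69.8) lay the other way, and the other picked genes did not. In 190 other nuclei of the main cluster, 54 of which are among the 118, the 8 genes of the Opcml side again lay in the same direction and 6 of the other 8 did, the exceptions being Scn7a and Thsd7a. Their depths differed, with medians of 1431 UMIs with Opcml and 880 without. At an equal depth of 500 UMIs both exceptions lay in the direction of the members, with Scn7a at 16.0% and 22.9% and Thsd7a at 29.6% and 33.3%. In the 148 nuclei with both gene sets the 8 genes of the Opcml side lay in the same direction, with Pi16 in 32.4% and 15.6%. Of the other side 4 of 8 did, and Apod, found in 32.4% with Opcml and 23.4% without, was among those that did not. At 500 UMIs Scn7a lay in the direction of the members there too, at 24.0% and 25.6%, and Apod, Spon1 and Thsd7a did not. Of the genes not picked, Dpp4 and Sema3c kept the direction of the members in the 118 and in the 148 nuclei. Procr was found in 17.6% of the 118 with Opcml and 14.9% without, and in 9.86% and 7.79% of the 148. Igfbp3 was found in 7.84% and 10.4% of the 118, and in the opposite direction, 8.45% and 5.19%, of the 148. These directions were not tested, since all the nuclei are of 1 library.

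**Figure D4:**
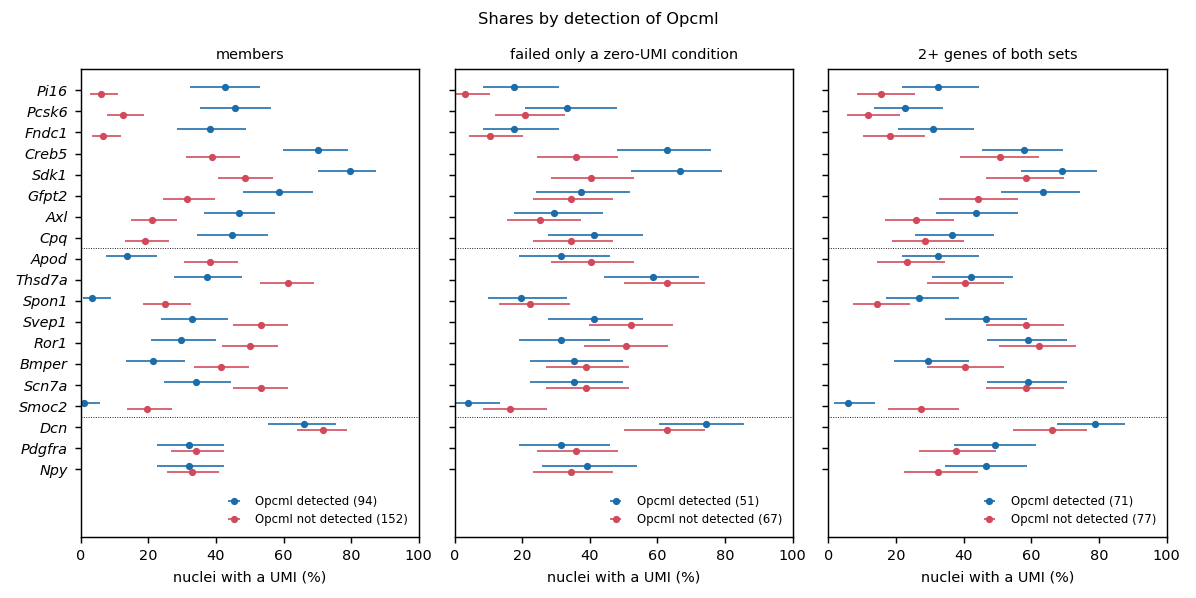
Share of nuclei with a UMI (x axis, %) of each gene (rows) with Opcml detected (blue) and not detected (red), in members, in the 118 nuclei that failed only a zero-UMI condition and in the 148 nuclei with both gene sets; bars are exact 95% binomial intervals. The upper 8 and the middle 8 genes were picked in members, where Pi16 is 42.6% against 5.92% and Apod 13.8% against 38.2%; Dcn, Pdgfra and Npy, at the bottom, were not.

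The skin libraries allowed the same rule to be counted in another tissue. Skin fibroblast cells were taken as cells with UMIs in at least 2 of Col1a1, Col1a2, Col3a1, Dcn and Pdgfra and none of Ptprc, Pecam1, Krt5 and Krt14, which gave 655 cells in the control library (median 2538 UMIs) and 504 in the RHS library (median 2722). They came through a selection for CD45, which fibroblasts lack, so they are not a fair sample of skin fibroblasts. Of these, 33 passed the rule of the members in the control library (5.04%, interval 3.49 to 7.00%) and 77 in the RHS library (15.3%, 12.2 to 18.7%). With every cell thinned to 500 UMIs, 15 (2.29%, 1.29 to 3.75%) and 23 (4.56%, 2.91 to 6.77%) passed. The unthinned intervals did not overlap and the thinned ones did. Each skin group is 1 library, so no difference between control and RHS mice can be drawn from this. Whole cells on 1 platform and nuclei on another cannot be told apart from the difference of tissue, so levels are not compared across tissues.

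In both skin libraries, several genes highest in ganglia members were also higher in cells passing the rule than in the other skin fibroblast cells. Those other cells could be chosen by collagen UMIs alone. In both libraries Dcn was detected in most cells passing the rule but in a minority of the others. The part of this difference in the ratios below was not tested. Of the 20 genes highest in members against the other ganglia nuclei, 13 could be compared in control skin between fibroblast cells passing and not passing the rule, and 7 were at least 2-fold higher and 2 lower. In RHS skin 16 could be compared, and 13 were higher and 1 lower. Over all genes 7.86% were at least 2-fold higher in control skin and 6.46% in RHS skin; rule cells were deeper than the others, with medians of 3834 against 2520 UMIs and 3109 against 2525. Il33 was 3.88 (2.02 to 7.03) times as high in rule cells of control skin and 3.92 (2.91 to 5.27) times in RHS skin, and Sned1 8.31 (4.55 to 14.9) and 4.13 (2.81 to 6.05) times. Hmcn2 stood at 16.9 (8.22 to 35.4) and 3.10 (1.30 to 7.1). Pi16 had 20 UMIs in 12 of the 77 rule cells of RHS skin (ratio 5.00, interval 2.51 to 10.0) and 3 UMIs in those of control skin. Cxcl13 had 123 UMIs in 14 rule cells of RHS skin and 10 UMIs in its other fibroblast cells (ratio 55.4, interval 29.1 to 118), and 7 and 2 UMIs in control skin. Vdr went the other way in both, at 0.307 (0.0827 to 0.801) and 0.265 (0.0702 to 0.710).

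Some other genes of the members did not carry over, and others did. Procr was lower in rule cells of both skin libraries, at 0.275 (0.183 to 0.397) and 0.324 (0.270 to 0.386) times the level of other skin fibroblast cells. Ebf1 stood at 0.641 (0.435 to 0.915) in control and 1.17 (0.908 to 1.5) in RHS skin. Collagens were higher, with Col3a1 at 2.44 (2.31 to 2.58) and 1.52 (1.45 to 1.60). There the comparison was with all other skin fibroblast cells, since C7 had no more than 5 positive cells outside the rule in either library. Most of these other cells had no UMI of Dcn, so the direction cannot be set against that of the ganglia comparison. Dcn was 6.45 (6.01 to 6.92) and 4.14 (3.94 to 4.35) times as high, Cd34 5.00 (3.97 to 6.26) and 3.96 (3.39 to 4.62), and Apod 4.28 (3.98 to 4.59) and 4.08 (3.87 to 4.29). Pi16 and Apod did meet in RHS skin, where 10 of 12 rule cells with Pi16 had Apod, and 60 of 65 without Pi16. In control skin 1 of 3 rule cells with Pi16 had Apod, and 27 of 30 without it. Ccl11 was at 130.3 CPM in rule cells against 40.1 in the others of control skin and at 399 against 129.5 CPM in RHS skin, ratios of 3.25 (1.85 to 5.44) and 3.08 (2.41 to 3.92).

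**Figure D5:**
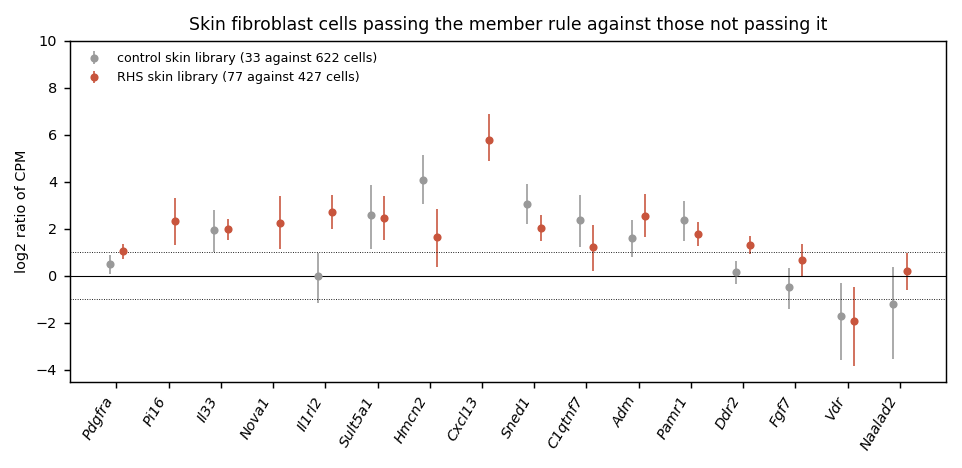
Log2 ratio of CPM (y axis) in skin fibroblast cells passing the rule over those not passing it, for genes among the 20 highest in ganglia members that reached 20 UMIs (x axis), in the control (grey) and RHS (red) skin libraries; bars are exact 95% intervals of counting error and dotted lines mark 2-fold. Il33, Sult5a1, Hmcn2, Sned1, C1qtnf7, Adm and Pamr1 lie above 2-fold in both, and Vdr lies below 1 in both.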

How the data were processed

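The files deposited for each library give UMI counts, as whole numbers without normalization by the authors. Per the file headers the ganglia matrix came from Cell Ranger 7.1.0, and the submitters' processing notes name GRCm39, Seurat 5.1.0 and R 3.6.0, without roles. The members and gene lists were chosen with earlier results of these data known. A nucleus needed 200 genes or more and no more than 5% of UMIs from mitochondrial genes (20% for skin cells), and members were taken by the rule given above. The 2 skin libraries shared 5 barcodes, and the ganglia library shared 0 with them, its barcodes being of another format.

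UMIs were summed over each group and divided by the group's total. Levels carry exact Poisson, shares Clopper-Pearson and ratios exact conditional binomial 95% intervals. Genes with at least 20 UMIs over both groups were compared, a difference was counted from 2-fold, and a group at 0 UMIs was set to 3. Clusters used 2000 variable genes, counts scaled to 10000 UMIs, 30 components, 15 neighbours and Leiden resolution 1.0 in scanpy 1.11.5 (leidenalg 0.10.2, igraph 0.11.9), and Scrublet expected 6% doublets. Python 3.11.15, numpy 2.4.6, pandas 2.3.3 and scipy 1.17.1 did the rest. The computation was tested on simulated data. Genes named are those of the rule, a fixed set of fibroblast, immune and stress genes, the 15 highest and 15 lowest ratios against C7 and Epha3 nuclei, the 20 highest against other nuclei, and from each list the 4 with the highest CPM and the 2 highest and 2 lowest ratios; others are said to be chosen after their values were seen. In all, 16 alternatives were tried, 12 of them planned. The others were chosen after seeing the data: leaving out the mesothelial-marked nuclei, joining the nuclei of both gene sets, limiting the other nuclei to at most 1 gene of each set, and leaving out each gene's highest nucleus. Coordinates are not given, and some genes of the fixed set are not reported here.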

Additional observations from a re-analysis of the deposited data

How the results depend on the processing

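The number of members, 246, was 137 with at least 3 selecting genes, 109 with none of the limited genes, 23 with no marker of another cell type and 450 as the main Leiden cluster. The number of genes compared changed with the setting, so each count is given with it. Against C7 and Epha3 nuclei, 633 of 4989 genes (12.7%) were at least 2-fold higher. They became 353 of 3146 (11.2%) with none of the limited genes and 51 of 243 (21.0%) with no marker of another cell type. They were 1028 of 6324 (16.3%) for the Leiden cluster, 225 of 2329 (9.66%) with at least 50 UMIs and 1539 of 10227 (15.0%) with at least 5 UMIs. With nuclei thinned to 500 UMIs they were 271 of 1782 (15.2%). With the nuclei of both gene sets joined, an alternative chosen after seeing the data, they were 373 of 6825 (5.47%). The 365 genes lower (7.32%) became 47 of 243 (19.3%) with no marker of another cell type and 142 of 2329 (6.10%) with at least 50 UMIs. They were 1163 of 10227 (11.4%) with at least 5 UMIs and 130 of 1782 (7.30%) when thinned. Against the other nuclei, the 1338 genes higher (8.73%) became 2536 of 15247 (16.6%) with no marker of another cell type. With at least 5 UMIs they were 2040 of 18862 (10.8%). The 2282 lower (14.9%) became 731 of 15247 (4.79%) with no marker of another cell type. With the nuclei of both gene sets joined, the ratio over C7 and Epha3 nuclei passed to the other side of 1 for Nox4 (0.981) and Errfi1 (0.931). In the 23 members with no marker of another cell type it did so for Gsn (0.799) and Ddr2 (0.824), and the ratio over other nuclei for Col1a2 (0.980). The causes were not tested. No other ratio followed that was at least 2-fold passed to the other side of 1 under any setting run, while smaller ones did, such as that of Fgf7 (1.77, and 0.685 with the nuclei of both gene sets joined). No paired analysis was possible because each group is 1 library. Few UMIs per nucleus limit genes under about 20 UMIs.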

Other observations

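Transcripts of the X-inactivation genes Xist or Tsix were the only sex-linked ones found in 21 members (8.54%), Y-linked ones in 116 (47.2%), both kinds in 11 (4.47%) and neither in 98 (39.8%). Over all 4509 kept nuclei both kinds were found in 276 (6.12%). Both kinds were present in the pool of 30 mice. Members outside the main cluster included 6 in the cluster led by Cdh12, Muc16 and Wt1, 3 in a cluster led by Clps and Tubb3 and 1 in the neuron-gene cluster of 109 nuclei. In RHS skin, Il1rl2, the interleukin-36 receptor, was 6.52 (3.97 to 10.9) times as high in fibroblast cells passing the rule, and 1.01 (0.450 to 1.98) times in control skin. These values come from 1 library each, and the difference was not tested.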
